A study of Homo sapiens with 12 samples.

Results

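The 10 genes described here carry selective autophagy and its core machinery: the cargo receptors SQSTM1 and NBR1, the LC3 and GABARAP genes MAP1LC3B, GABARAP, GABARAPL1 and GABARAPL2, the early-acting ULK1, WIPI1 and ATG5, and the transcription factor TFEB. They were picked by name for their roles, with earlier results of these data known though by a rule that reads no measured value, from the 20263 genes of the expression table, and all 10 passed the filter on low counts that left 14287 genes for testing. RNA-seq was performed on total RNA of A375 cells, an established human melanoma line, in 4 groups of 3 libraries. The genotype is recorded as wild type, which does not describe the line's own tumour mutations. Ctrl cells received neither agent. DdBIC cells received dodecyl 1H-benzo[d]imidazole-5-carboxylate (written DBIC in the labels), a benzimidazole ester that the study developed as an inducer of GSDMC-mediated pyroptosis. Hemin cells received hemin, an iron porphyrin taken up by cells as a source of heme, and DdBIC+Hemin cells received both. The labels give neither dose nor duration. The study's methods lowered the serum in the medium during DdBIC treatment, and do not say whether all 4 RNA-seq groups shared that medium. They do not say whether the libraries of a group came from separate cultures, and the study's general statement on independent experiments does not name the RNA-seq, so p-values measure only the spread between these libraries, which may be technical.

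Autophagy encloses cytoplasm in a double membrane and delivers it to the lysosome. The ULK1 kinase starts the process, a lipid kinase complex then marks the growing membrane with PI3P, which WIPI proteins bind, and the ATG12-ATG5 conjugate attaches LC3 and GABARAP proteins to membrane lipid. SQSTM1 (p62) and NBR1 bind ubiquitylated cargo on one side and LC3 or GABARAP on the other, and are themselves degraded with the cargo. TFEB drives transcription of lysosomal and autophagy genes, while ATF4 and CHOP, the transcription factors of the integrated stress response, are known to induce several of these genes, SQSTM1 among them. RNA levels say nothing of autophagic flux, which acts on the proteins.

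Each library held 37951275 to 44358912 counted reads. Levels are given as CPM, the read count of a gene relative to the library's total after edgeR's TMM scaling, and as TPM, which also divides by length, where one gene is set against another. Differences are log2 fold changes from edgeR's quasi-likelihood test with Benjamini-Hochberg adjustment over all 14287 genes. A gene was called where its adjusted p was below 0.05. HMOX1, the heme-degrading enzyme induced by heme, was higher in each of the 6 libraries with hemin (61.9 to 188 CPM) than in each of the 6 without (7.26 to 9.19 CPM). Of 11 melanocyte and neural crest markers, SOX10, AXL and NGFR were at 119.8 CPM or more in every library, MITF, S100B and S100A1 at 3.37 to 21.5 CPM, and the pigment genes PMEL, MLANA, TYR, DCT and TYRP1 at 1.11 CPM or less. With DdBIC 2 of the 9 tested were called higher (SOX10 at 0.23 and PMEL at 0.90 on the log2 scale) and 3 lower (S100B at -0.36, NGFR at -0.23 and AXL at -0.16), where 37.2% of all genes were called. Of 14 markers of other cell types, 3 had 0 counts in every library, the leukocyte gene PTPRC among them. The highest were ACTA2 (3.94 to 5.57 CPM), KRT14 (2.62 to 3.92), LYZ (1.35 to 2.19) and CD14 (0.409 to 1.30), and the sum over the 14 was 10.5 to 13.02 CPM in Ctrl, 11.3 to 12.3 in DdBIC, 11.8 to 13.5 in Hemin and 12.6 to 13.1 with both. The 1 of these markers called with DdBIC was CDH5, an endothelial cadherin, at 0.133 ± 0.125 CPM in Ctrl, 0.601 ± 0.0824 in DdBIC, 0.201 ± 0.128 in Hemin and 0.612 ± 0.116 with both (log2 fold change for DdBIC against Ctrl 2.14 ± 0.636, edgeR adjusted p = 0.0211). When hemin was added to DdBIC the 1 called was ACTA2 (0.32 ± 0.104, edgeR adjusted p = 0.0399). The part of the markers in the members' results was not tested. In bulk RNA, fewer cells of a kind and less RNA per cell cannot be told apart.

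Promoter sequence is shown for SQSTM1, NBR1 and ULK1, which were called in at least one comparison under every alternative fit, and for GABARAPL1, the member with the widest spread between libraries. The 250 bases before the RefSeq start furthest into the gene are given 5′ to 3′ on the gene's strand (GRCh38.p14), at chr5:179820655-179820904 for SQSTM1, chr17:43170964-43171213 for NBR1, chr12:131894372-131894621 for ULK1 and chr12:10212627-10212876 for GABARAPL1, all on the plus strand. Capitals mark a cAMP response element (TGACGTCA), a motif added after the sequences had been seen.
SQSTM1: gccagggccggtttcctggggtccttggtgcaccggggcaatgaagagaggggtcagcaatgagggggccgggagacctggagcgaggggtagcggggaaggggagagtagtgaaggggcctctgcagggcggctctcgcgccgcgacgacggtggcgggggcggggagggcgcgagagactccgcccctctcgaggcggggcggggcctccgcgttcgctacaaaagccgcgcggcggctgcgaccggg
NBR1: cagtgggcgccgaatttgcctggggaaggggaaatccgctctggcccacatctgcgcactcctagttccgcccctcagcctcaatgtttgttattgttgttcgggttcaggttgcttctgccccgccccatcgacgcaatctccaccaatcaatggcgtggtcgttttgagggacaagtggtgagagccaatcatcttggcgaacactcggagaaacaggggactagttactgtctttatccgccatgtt
ULK1: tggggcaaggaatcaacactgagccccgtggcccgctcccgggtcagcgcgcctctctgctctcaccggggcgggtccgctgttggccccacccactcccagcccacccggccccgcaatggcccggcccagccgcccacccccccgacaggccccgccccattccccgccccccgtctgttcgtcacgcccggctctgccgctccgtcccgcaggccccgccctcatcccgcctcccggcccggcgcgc
GABARAPL1: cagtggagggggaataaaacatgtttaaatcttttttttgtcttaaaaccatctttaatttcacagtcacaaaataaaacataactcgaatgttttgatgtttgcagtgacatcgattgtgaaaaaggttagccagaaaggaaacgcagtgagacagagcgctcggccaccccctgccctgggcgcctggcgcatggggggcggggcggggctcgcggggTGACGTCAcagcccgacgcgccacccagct
The SQSTM1 and ULK1 windows are 73.6% and 78.0% G or C, against 54.8% for NBR1, 51.6% for GABARAPL1 and a median of 58.0% over 35116 RefSeq promoters.

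All 10 members matched the promoter table. Both strands of the windows were searched for the motifs given below, and a match is a description, not a binding site. The E-box at the core of the TFEB element (CACGTG) was in none of the members' windows and in 6.34% of all promoters. The ATF4/CHOP composite motif (TGATGNAA) was in none and in 3.14% of all promoters, and the AP-1 motif (TGANTCA) was in none and in 6.57%. The antioxidant response motif (TGACNNNGC) was in 10.9% of all promoters and in 1 member, MAP1LC3B, as TGACCAGGC starting 46 bases before the start. TGACGTCA, added after the sequences had been seen, was in 1.65% of all promoters and, among the members, in GABARAPL1, 30 bases before the start. No match within 250 bases says only that these letters are absent from that window.

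By TPM, SQSTM1 had the highest level of the 10 genes in all 4 groups. In Ctrl it stood at 254 ± 36.3 TPM (SD, n = 3), followed by GABARAPL2 at 119 ± 11.5, NBR1 at 80.5 ± 1.05 and GABARAP at 53.7 ± 2.37. MAP1LC3B (37.5 ± 6.64), ULK1 (31.4 ± 0.635) and GABARAPL1 (20.4 ± 2.15) came next. ATG5 (16.95 ± 0.727) and WIPI1 (16.4 ± 2.15) overlapped, while every other pair of neighbours in this order was separated in the Ctrl libraries. TFEB was far below the rest at 1.10 ± 0.0678 TPM, from 41 to 62 reads a library over the whole study, which limits what can be seen for it. The first 5 places and the last were the same in all 4 groups.

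**Figure D1:**
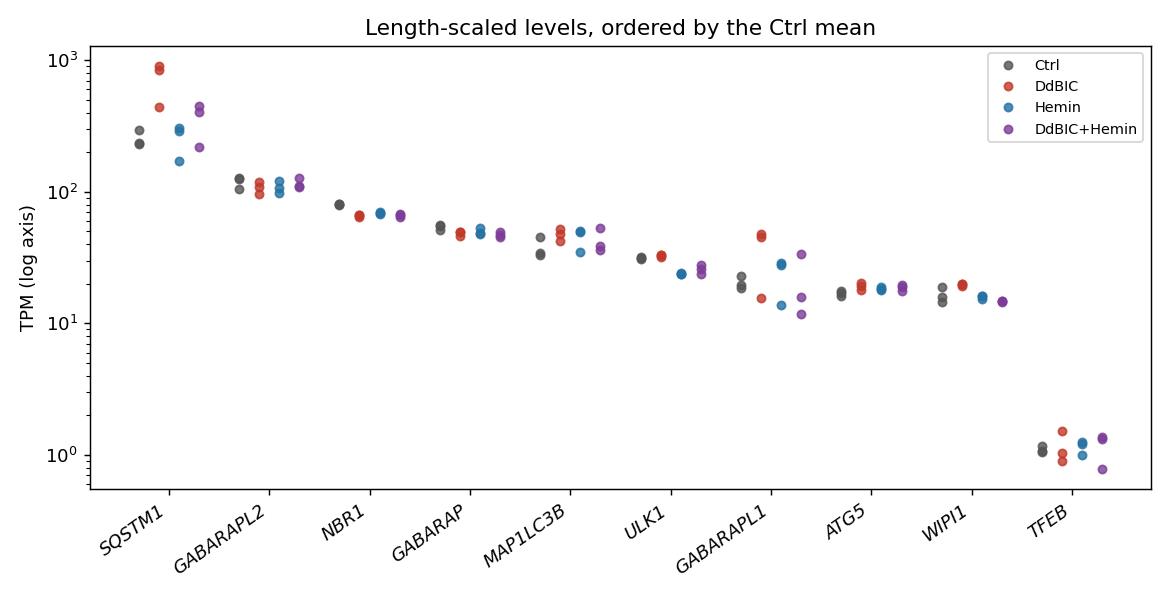
TPM (log axis) of the 10 genes in each of the 12 libraries, coloured by group and ordered by the Ctrl mean. SQSTM1 is highest in every group, TFEB lies near 1 TPM, and GABARAPL1 is the gene whose libraries scatter most within a group.

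The comparison of DdBIC with Ctrl asks how the pyroptosis inducer alone moves these genes. SQSTM1 rose 2.71-fold, NBR1 fell to 0.836 of its Ctrl level and GABARAP to 0.862, so that the receptor pair moved in opposite directions. These were 3 of 10 members called, 1 higher and 2 lower, where 37.2% of all tested genes were called (20% higher, 17.2% lower). Libraries of the 2 groups did not overlap for 5 members (SQSTM1, NBR1, GABARAP, WIPI1 and ATG5), against 50% of all genes. The median log2 fold change was 0.11 over the members and -0.01 over all genes.

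SQSTM1 (ENSG00000161011, chr5:179806408-179838078, plus strand) encodes the p62 receptor, which gathers ubiquitylated proteins into condensates. It stood at 269, 316 and 281 CPM in Ctrl replicates 1 to 3 and at 969, 499 and 880 CPM in the DdBIC replicates. With hemin alone it was 345, 314 and 175 CPM, and with both agents 504, 249 and 440 CPM. Every DdBIC library exceeded every Ctrl library, replicate 2 being the lowest of the DdBIC group, and the DdBIC+Hemin libraries reached from below the Ctrl range to just above the lowest DdBIC library. For DdBIC against Ctrl the log2 fold change was 1.44 ± 0.351 (SE; 95% interval 0.63 to 2.25, edgeR adjusted p = 0.0107), and it stayed called in all 21 alternative fits, at 1.26 to 1.68.

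Addition of hemin to DdBIC brought the SQSTM1 mean from 783 ± 249 to 398 ± 133 CPM (SD, n = 3 each), a log2 difference of -0.98 ± 0.347 (95% interval -1.78 to -0.18) that missed the threshold (edgeR adjusted p = 0.0601). It passed with DESeq2 (adjusted p = 0.0149), with limma on log2 TPM (adjusted p = 0.0495), and in edgeR without DdBIC replicate 2 (-1.22, adjusted p = 0.0291) or without Hemin replicate 3 (-0.98, adjusted p = 0.0435). On leaving out single libraries it passed in 2 of 12 fits, at -1.22 to -0.73 with edgeR adjusted p up to 0.177. Of the 9 other fits, 2 passed. The effect of DdBIC with hemin minus that without was -0.92 ± 0.488 (95% interval -2.05 to 0.20, edgeR adjusted p = 0.257), so a difference between the responses was not resolved. DdBIC+Hemin against Ctrl gave 0.46 ± 0.345 (edgeR adjusted p = 0.466) and Hemin against Ctrl -0.06 ± 0.345 (edgeR adjusted p = 0.969).

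Several values move with SQSTM1 and their part in its rise was not tested. MRNIP, a DNA repair gene on the opposite strand, overlaps SQSTM1, and 15.5% of the 75-base stretches in SQSTM1 transcripts (GENCODE 29) also occur, in either orientation, in MRNIP transcripts. MRNIP was at 44.4 to 50.2 CPM in Ctrl and 148 to 164 CPM in DdBIC (log2 fold change 1.72 ± 0.0792, edgeR adjusted p = 3.44e-08), and was at 54.6 to 63.1 CPM with both agents, still above Ctrl (0.32 ± 0.0777, edgeR adjusted p = 0.0213). Whether the counting used strand is not given in the sources used here. The 3 DdBIC libraries also differed in their share of mitochondrial reads, which was 2.50%, 2.99% and 2.43% in replicates 1 to 3 and 2.90% to 3.43% in the other 9 libraries. DdBIC replicates 1 and 3 thus had both the lowest mitochondrial shares and the highest SQSTM1 levels.

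NBR1 (ENSG00000188554, chr17:43170481-43211689, plus strand) encodes the second receptor, which acts with p62 on ubiquitylated cargo and peroxisomes. Its levels were 159, 165 and 166 CPM in Ctrl, 133, 139 and 137 CPM in DdBIC, 142, 140 and 143 CPM in Hemin, and 137, 134 and 142 CPM with both. All 9 treated libraries lay below all 3 Ctrl libraries, and the treated groups lay close together. The log2 fold change against Ctrl was -0.26 ± 0.0301 with DdBIC (edgeR adjusted p = 5.32e-05), -0.21 ± 0.0301 with hemin (edgeR adjusted p = 0.00318) and -0.24 ± 0.0301 with both (edgeR adjusted p = 0.000382). These 3 comparisons share the Ctrl libraries. Adding hemin to DdBIC gave 0.01 ± 0.0301, with a 95% interval of -0.06 to 0.08 (edgeR adjusted p = 0.762). The effect of DdBIC with hemin minus that without was 0.22 ± 0.0426 (95% interval 0.12 to 0.32, edgeR adjusted p = 0.00472), the only member called for this interaction, where 16.6% of all genes were called (6.4% higher, 10.2% lower). The falls from Ctrl and the interaction stayed called in every alternative fit.

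**Figure D2:**
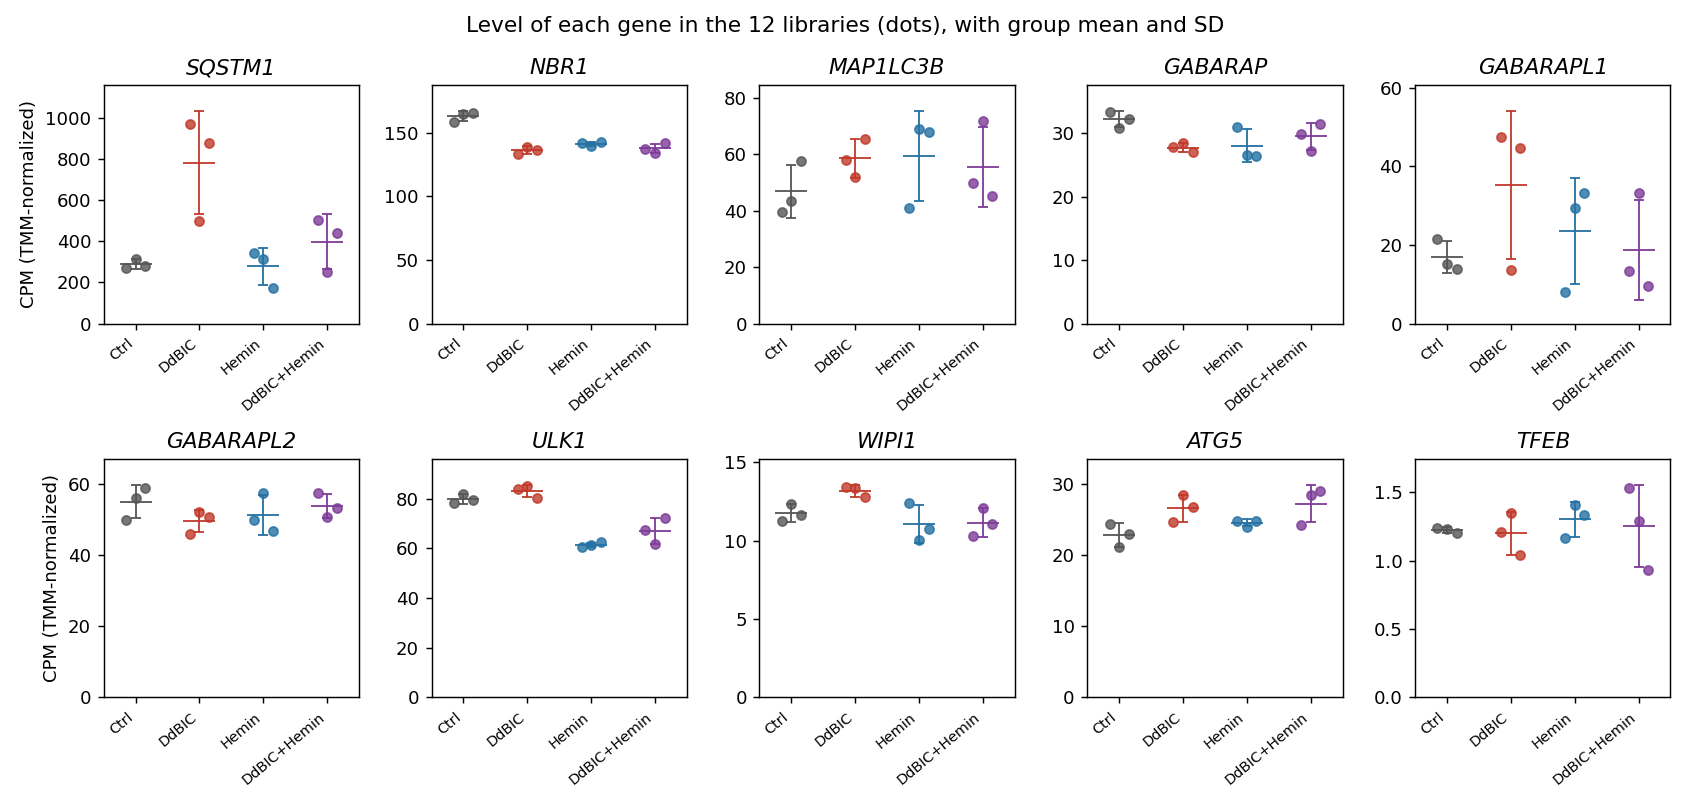
CPM of each gene in the 12 libraries (dots, replicates 1 to 3 from left to right), with the group mean (bar) and SD, each panel on its own axis from 0. SQSTM1 is higher in each of the 3 DdBIC libraries than in any Ctrl or Hemin library, NBR1 is lower in all 9 treated libraries than in Ctrl, and ULK1 is lower in all 6 libraries with hemin.

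The LC3 and GABARAP genes showed small or unresolved differences. GABARAP (chr17:7240014-7242770, minus strand) encodes a protein attached to the autophagosome membrane, where it recruits receptors and fusion factors. It stood at 33.3, 30.8 and 32.3 CPM in Ctrl and at 27.8, 28.4 and 27.0 CPM in DdBIC, with no overlap. The log2 fold change was -0.21 ± 0.0712 (edgeR adjusted p = 0.0351), but the call was lost without Ctrl replicate 1 (adjusted p = 0.107) or 3 (0.0796), and without DdBIC replicate 1 (0.0765), 2 (0.0538) or 3 (0.0936). It was also lost when each library's implied gene length was taken into account (-0.15, adjusted p = 0.0937) and with limma on log2 TPM (-0.14, adjusted p = 0.0731). In the Hemin libraries it was 31.0, 26.5 and 26.5 CPM and with both agents 29.8, 27.2 and 31.4 CPM, and no other comparison passed. GABARAP shares 45.1% of its 75-base stretches with other annotated genes, 25.9% with the overlapping AC120057.2, so its count is uncertain.

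GABARAPL1 (chr12:10212458-10223130, plus strand), a close relative of GABARAP, varied more within groups than between them. Its levels were 21.5, 15.3 and 13.8 CPM in Ctrl and 47.4, 13.7 and 44.7 CPM in DdBIC. They were 7.996, 29.4 and 33.2 CPM in Hemin and 13.3, 33.3 and 9.64 CPM with both. One DdBIC library and 1 Hemin library were therefore below every Ctrl library while the other libraries of those groups were above them. The log2 fold change for DdBIC against Ctrl was 1.06 ± 0.666, with a 95% interval of -0.47 to 2.60 (edgeR adjusted p = 0.251), so neither no change nor a rise like that of SQSTM1 lies outside it. Its biological coefficient of variation, the relative spread between replicates in the edgeR model, was 0.544 and higher than in 97.8% of tested genes (median 0.0897). The ratio of its count to its deposited FPKM, set to the library median, differed 2.05-fold between libraries, more than in 98.6% of the 10121 genes with over 200 counts in each library, and its part in the spread was not tested.

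MAP1LC3B (chr16:87391800-87404779, plus strand) encodes LC3B, the form most used to mark autophagosomes. It stood at 39.5, 43.3 and 57.5 CPM in Ctrl and at 58.0, 51.8 and 65.5 CPM in DdBIC, which overlap. In Hemin it was 40.8, 69.0 and 67.7 CPM and with both agents 49.6, 71.7 and 45.1 CPM. None of its 5 comparisons passed, and the interval for DdBIC against Ctrl was -0.25 to 0.89 around 0.32 (edgeR adjusted p = 0.349). FBXO31, which overlaps MAP1LC3B on the opposite strand, was at 32.8 to 41.5 CPM in Ctrl and 51.1 to 54.9 CPM in DdBIC. GABARAPL2 (chr16:75566351-75577881, plus strand), which encodes GATE-16, ranged only from 46.1 to 59.0 CPM over the 12 libraries. Its log2 fold change for DdBIC against Ctrl was -0.15, with a 95% interval of -0.35 to 0.05 (edgeR adjusted p = 0.211).

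Across the 12 libraries, after group means were removed, the deviations of MAP1LC3B correlated with those of GABARAPL1 (Pearson's r = 0.75) and ran against those of GABARAP (r = -0.86). These values describe the spread between libraries, which share depth and preparation, and were not tested.

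Among the genes of the early steps, ULK1 was lower wherever hemin was present. ULK1 (chr12:131894651-131923167, plus strand) encodes the kinase that receives nutrient signals from mTORC1 and AMPK. It stood at 78.3, 82.1 and 79.7 CPM in Ctrl, 84.0, 85.0 and 80.5 CPM in DdBIC, 60.7, 61.6 and 62.4 CPM in Hemin, and 67.5, 61.7 and 72.1 CPM with both. All 6 libraries with hemin lay below all 6 without, and Ctrl and DdBIC overlapped. Hemin alone gave a log2 fold change of -0.38 ± 0.0512 (fold 0.769, edgeR adjusted p = 0.00217), and hemin added to DdBIC gave -0.31 ± 0.0511 (fold 0.807, edgeR adjusted p = 0.000844). Both calls held in every alternative fit. DdBIC alone gave 0.06 ± 0.051 (95% interval -0.06 to 0.17, edgeR adjusted p = 0.431), and the interaction was 0.07 ± 0.0722 (95% interval -0.10 to 0.24, edgeR adjusted p = 0.59).

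The background of these calls differed widely. In Hemin against Ctrl, NBR1 and ULK1 were 2 of 10 members called, both lower, where 4.06% of all genes were called (1.47% higher, 2.59% lower). They were also the 2 members whose libraries did not overlap, as for 25.1% of all genes. In DdBIC+Hemin against DdBIC, ULK1 was the 1 member called, where 31.9% of all genes were called (13.5% higher, 18.4% lower). ULK1 and WIPI1 were the 2 members without overlap there, against 44.2% of all genes. In DdBIC+Hemin against Ctrl, NBR1 and ULK1 (-0.25 ± 0.0511, edgeR adjusted p = 0.00755) were again the members called, both lower, where 12.4% of all genes were called (5.66% higher, 6.74% lower), and the 2 without overlap, against 31% of all genes. With upper-quartile scaling in place of TMM, the split of all genes turned from 2859 higher and 2451 lower to 2310 and 3472 in DdBIC against Ctrl. It turned from 1933 and 2626 to 2948 and 2032 in DdBIC+Hemin against DdBIC, and from 914 and 1462 to 1497 and 1203 in the interaction.

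WIPI1 (chr17:68420948-68457499, minus strand), which binds PI3P on the growing membrane, was at 11.3, 12.4 and 11.6 CPM in Ctrl and 13.4, 13.3 and 12.8 CPM in DdBIC. In Hemin it was 12.4, 10.1 and 10.7 CPM and with both agents 10.3, 12.1 and 11.1 CPM, so every DdBIC library was above every library of Ctrl and of DdBIC+Hemin. The log2 fold change was 0.17 ± 0.0875 for DdBIC against Ctrl (edgeR adjusted p = 0.167) and -0.24 ± 0.0876 for DdBIC+Hemin against DdBIC (edgeR adjusted p = 0.0564). Both passed when implied length was taken into account, at 0.27 (adjusted p = 0.035) and -0.39 (adjusted p = 0.00703). They also passed with limma on log2 TPM, at 0.26 (adjusted p = 0.0232) and -0.41 (adjusted p = 0.00299). The fall for DdBIC+Hemin against DdBIC also passed without Hemin replicate 1 (adjusted p = 0.0343), Hemin replicate 2 (0.0486) or DdBIC+Hemin replicate 2 (0.0363). On leaving out single libraries, the rise with DdBIC passed in 0 of 12 fits and the fall in 3 of 12. Each passed in 2 of the 9 other fits. WIPI1 shares 18.8% of its 75-base stretches with ARSG, a sulfatase gene on the opposite strand whose level was at most 4.68 CPM.

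ATG5 (chr6:106045423-106325791, minus strand), the partner of ATG12 in the conjugate that directs LC3 attachment, was at 24.3, 21.1 and 23.0 CPM in Ctrl and 24.6, 28.4 and 26.7 CPM in DdBIC. It was 24.8, 24.0 and 24.8 CPM in Hemin and 24.2, 28.4 and 28.9 CPM with both. The DdBIC libraries were all above the Ctrl libraries, the lowest by a narrow margin. The log2 fold change of 0.22 ± 0.0805 lay at the threshold (edgeR adjusted p = 0.0511) and passed with DESeq2 (adjusted p = 0.0443) and without Ctrl replicate 1 (0.0403), DdBIC replicate 1 (0.0343) or DdBIC+Hemin replicate 1 (0.0261). On leaving out single libraries it passed in 3 of 12 fits, with edgeR adjusted p up to 0.175, and it passed in 2 of the 9 other fits. PRDM1, a transcriptional repressor gene overlapping ATG5 on the opposite strand, rose from 26.9 to 31.0 CPM in Ctrl to 79.8 to 85.3 CPM in DdBIC (log2 fold change 1.47 ± 0.0985, edgeR adjusted p = 7.27e-07), and no 75-base stretch of ATG5 transcripts was shared with another gene.

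TFEB (chr6:41683978-41736259, minus strand) was at 1.20 to 1.24 CPM in Ctrl, 1.04 to 1.35 in DdBIC, 1.16 to 1.41 in Hemin and 0.935 to 1.53 with both. All groups overlapped, none of its comparisons passed, and the interval for DdBIC against Ctrl was -0.48 to 0.42 (edgeR adjusted p = 0.923). TFEB is controlled mainly through its location in the cell, which RNA levels do not show.

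**Figure D3:**
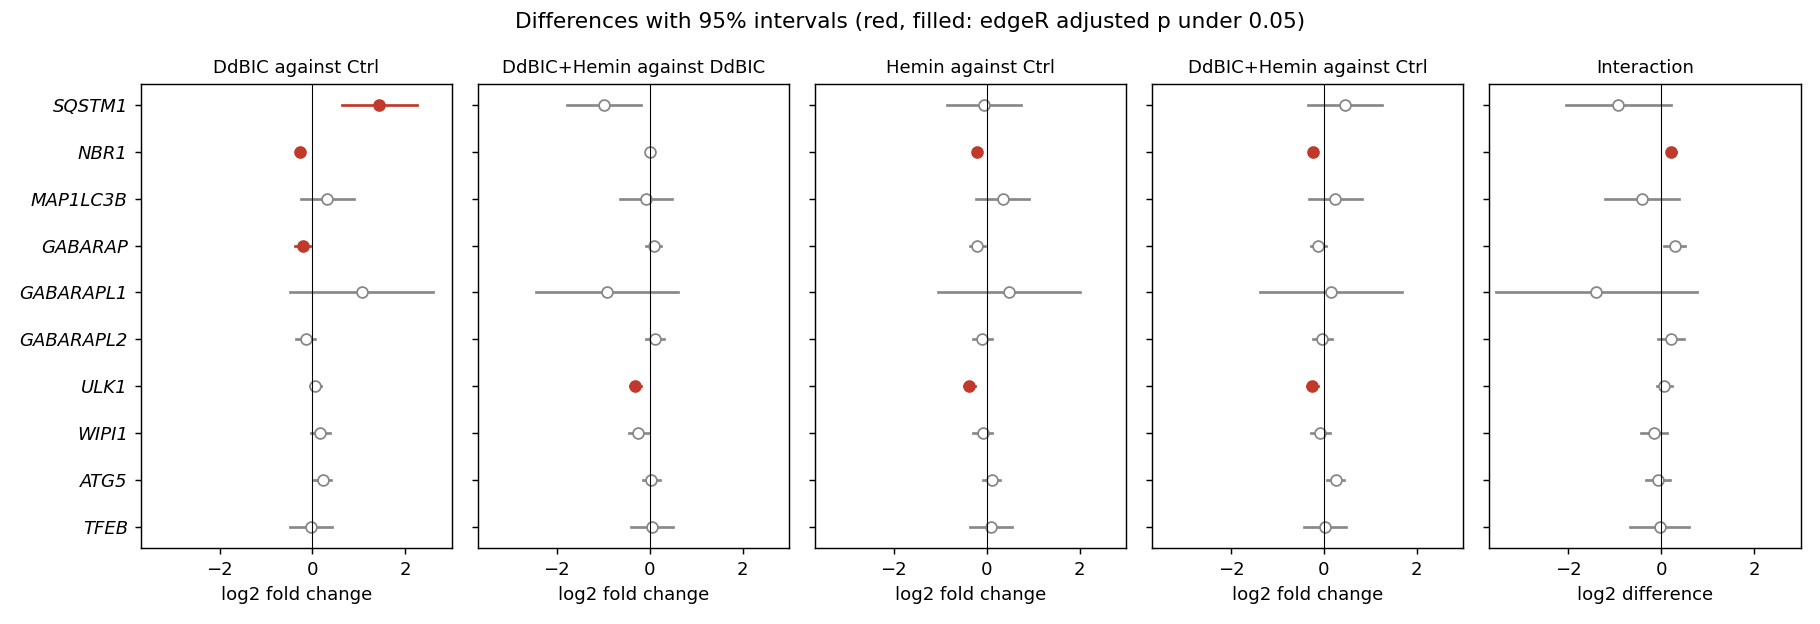
Log2 differences of the 10 genes in the 5 comparisons, with 95% intervals from the 8 residual degrees of freedom. Filled red points passed the edgeR threshold, with SQSTM1 at 1.44 for DdBIC against Ctrl the farthest from 0 among them, and the intervals of GABARAPL1 are the widest.

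ATF4 and DDIT3 (CHOP), which are known to induce autophagy genes, were set beside the members. ATF4 was at 462 ± 6.41 CPM in Ctrl, 737 ± 24.2 in DdBIC, 510 ± 9.32 in Hemin and 618 ± 19.1 with both (SD, n = 3 each). DDIT3 was at 12.7 ± 3.23, 123 ± 39.3, 18.4 ± 0.174 and 24.2 ± 5.22 CPM in the same order. In a list of 12 autophagy genes reported as induced through ATF4 or CHOP in other systems, 2 were higher with DdBIC (SQSTM1 and ATG12) and 2 were lower (NBR1 and GABARAP), near the 20% and 17.2% of all genes. The list's median log2 fold change was 0.02, against -0.01 over all genes.

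Beyond the members, 65 of 68 further genes of the autophagy machinery could be tested. With DdBIC 17 were higher (26.2%) and 6 lower (9.23%), with a median log2 fold change of 0.08. When hemin was added to DdBIC, 8 were higher (12.3%) and 14 lower (21.5%), with a median of -0.03. Over all genes the shares were 20% and 17.2% with DdBIC, and 13.5% and 18.4% when hemin was added.

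By step, the PIK3C3 lipid kinase complex and its regulators had 3 of 8 genes called with DdBIC, each higher, and 5 of 8 called when hemin was added, each lower, where 37.2% and 31.9% of all genes were called. NRBF2, a subunit of that complex, rose by 0.64 ± 0.068 on the log2 scale (edgeR adjusted p = 2.58e-05), with AMBRA1 at 0.35 ± 0.0342 and ATG14 at 0.30 ± 0.0404. In the ULK1 complex, ATG101 rose from 150 ± 1.79 to 223 ± 3.29 CPM with DdBIC (log2 fold change 0.57 ± 0.0403, edgeR adjusted p = 9.8e-07) and was at 172 ± 2.61 CPM with both agents. ATG12, the ubiquitin-like partner of ATG5, rose from 27.7 ± 1.01 to 41.2 ± 0.885 CPM and was at 31.5 ± 2.74 CPM with both. The 11 conjugation enzymes had 3 higher and 1 lower with DdBIC (ATG4A, -0.27 ± 0.0964, edgeR adjusted p = 0.0467). The 10 PI3P effectors and lipid transfer genes had 3 higher and 1 lower (ATG9A, -0.23 ± 0.0638). The 13 autophagosome-lysosome fusion genes had 2 higher and 3 lower, and 5 higher and 1 lower when hemin was added. Over all genes these shares were 20% and 17.2%, then 13.5% and 18.4%. Among 15 cargo receptors 3 were higher (SQSTM1, OPTN and SEC62) and 2 lower (NBR1 and TEX264) with DdBIC, near the 20% and 17.2% of all genes. OPTN, a mitophagy receptor, rose by 0.47 ± 0.0992 (edgeR adjusted p = 0.00307) and SEC62, a receptor for endoplasmic reticulum, by 0.27 ± 0.0399 (edgeR adjusted p = 3e-04). Of 6 LC3 and GABARAP genes tested, GABARAP was the 1 called with DdBIC.

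Among TFEB, its relatives and their nutrient control, 2 of 8 tested were called with DdBIC, both higher, where 37.2% of all genes were called. They were FNIP1 and FLCN, partners in the complex that passes amino acid signals to TFEB. FNIP1 rose from 23.1 ± 0.663 to 40.6 ± 1.38 CPM (log2 fold change 0.81 ± 0.0494, edgeR adjusted p = 3.31e-07) and was at 26.8 ± 1.15 CPM with both agents. FLCN rose by 0.49 ± 0.0519 (edgeR adjusted p = 2.51e-05).

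Lysosomal genes, many of them known TFEB targets, were mostly lower with DdBIC. Of 22 tested, 13 were lower with DdBIC (59.1%) and 1 higher, where 17.2% and 20% of all genes were called, with a median log2 fold change of -0.18. LAMP1, the main lysosomal membrane protein, fell from 399 ± 1.09 to 341 ± 3.65 CPM (log2 fold change -0.23, edgeR adjusted p = 4.54e-05). With hemin added, 11 of 22 were higher (50%) and 1 lower, with a median of 0.18, where 13.5% and 18.4% of all genes were called. Hemin alone called 0 of 22 by edgeR, 0 at an unadjusted p below 0.05 and 0 by DESeq2, where edgeR called 4.06% of all genes. The exception was NEU1, a sialidase, which rose from 25.9 ± 0.818 to 34.9 ± 1.45 CPM with DdBIC and was at 20.8 ± 0.466 CPM with both. The number lower with DdBIC was 9 to 15 over the alternative fits and the number higher with added hemin 10 to 13.

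The genes whose levels followed SQSTM1 most closely over the 12 libraries, out of 10669 with a mean of at least 5 CPM, were ATF7IP2 (Pearson's r = 0.935 on log2 CPM), PFKFB4 (0.934), IQCJ-SCHIP1 (0.927), NAA35 (0.925) and SUSD6 (0.919). PFKFB4, a regulator of glycolysis, was at 28.0 ± 1.75 CPM in Ctrl and 37.4 ± 5.32 in DdBIC, and ATF7IP2 at 6.17 ± 0.15 and 11.2 ± 0.772 CPM. The libraries share treatment and preparation, and the correlations are a description only.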

How the data were processed

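RNA-seq of 12 A375 libraries (4 groups of 3, taken from the treatment labels) was analysed. The authors deposited 1 table of 20263 genes with, for each library, the count of reads per gene, which they did not normalize. The same table holds TPM and FPKM values that the authors scaled by length and depth. The submitters' processing notes name Trim Galore, Subread, featureCounts and hg38, and versions and strand use are not given in the sources used here.

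The count model was that of edgeR 4.0.16 (R 4.3.3), with filterByExpr, TMM factors and robust quasi-likelihood F tests on a group-means design, which leaves 8 residual degrees of freedom. The interaction subtracts the response to DdBIC without hemin from the response with it. Standard errors were taken as the size of the log2 difference divided by the square root of F. The members and gene lists were chosen with earlier results of these data known. Named genes are the members, HMOX1, ATF4, DDIT3, up to 3 called genes per list, direction and comparison with the largest change, and the 5 genes most correlated with SQSTM1, the member with the widest range of group means. LAMP1 for DdBIC against Ctrl and the interaction, the markers of pigment and other cells, and the genes overlapping members were named in addition, after their values were seen. Overlaps and shared 75-base stretches came from GENCODE 29 (GRCh38), and promoters from RefSeq (GRCh38.p14). Positions are on GRCh38, and those printed for SQSTM1, MAP1LC3B and WIPI1 differ from GENCODE 29.

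Alternatives were DESeq2 1.42.0, upper-quartile and library-size scaling, no filter, at least 10 counts in every library, only the groups compared, a replicate block, and leaving out each library. Offsets for the implied length of each library (count over FPKM) and limma 3.58.1 on log2(TPM + 1) were added after the data were seen. The main edgeR fit was also run on counts simulated from its own estimates of spread, and the outcome is not used here. Some genes that met the naming rule are not reported here.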

Additional observations from a re-analysis of the deposited data

Results flagged for a closer look

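For 26 of the 97 tested genes of the autophagy and lysosome lists, members included, the effect of DdBIC differed with and without hemin by the interaction term of edgeR (adjusted p under 0.05). This is 26.8%, where 16.6% of all 14287 tested genes passed, with 16 differences positive and 10 negative. Of the 22 lysosomal genes 10 were positive and 1 negative, and of the 65 machinery genes beyond the members 5 and 9. Over all genes 6.4% passed with a positive difference and 10.2% with a negative one, or 914 and 1462 genes. With upper-quartile scaling in place of TMM these were 1497 and 1203. The genes given here are those of the naming rule and LAMP1. NBR1, the only member among the 26, had a difference of 0.22 on the log2 scale. The difference was negative, the effect of DdBIC being lower in the presence of hemin, for ATG101 (-0.45), NRBF2 (-0.54), ATG14 (-0.225), AMBRA1 (-0.22), TMEM41B (-0.49), ATG12 (-0.55), EPG5 (-0.37), FNIP1 (-0.59), FLCN (-0.26) and NEU1 (-0.74). The difference was positive for WIPI2 (0.19), BNIP3L (0.21), TEX264 (0.20), SNAP29 (0.23), RAB7A (0.14), CTSA (0.27) and LAMP1 (0.27). The cause of these differences was not tested.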

How the results depend on the processing

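The calls for SQSTM1 and NBR1 with DdBIC, for NBR1 and ULK1 with hemin and with both, for ULK1 when hemin was added to DdBIC and for NBR1 in the interaction held in every fit. In DdBIC against Ctrl the number of members higher was 1 and became 2 with at least 10 counts, DESeq2, length offsets or limma (1 to 2 on leaving out single libraries), and the number lower was 2 and became 1 with length offsets or limma (1 to 2). In DdBIC+Hemin against DdBIC the number lower was 1 and became 2 with DESeq2 or length offsets and 3 with limma (1 to 2). In DdBIC+Hemin against Ctrl the number higher was 0 and became 1 with DESeq2 or without DdBIC+Hemin replicate 1 (0 to 1), through ATG5. In the interaction the number higher was 1 and became 2 with upper-quartile scaling or DESeq2 (1 to 2), through GABARAP. The causes were not tested. Members without a call changed sign in some fits: ULK1 for DdBIC against Ctrl with upper-quartile scaling (-0.0056), TFEB for DdBIC against Ctrl with length offsets (0.069) and limma (0.031) and for the interaction with upper-quartile scaling (0.025), GABARAP for DdBIC+Hemin against DdBIC with length offsets (-0.0030) and limma (-0.038), ATG5 there with limma (-0.030), SQSTM1 for Hemin against Ctrl with length offsets (0.029), and GABARAPL1 for DdBIC+Hemin against Ctrl with limma (-0.13). Upper-quartile scaling moved the median of all genes by -0.061 in DdBIC against Ctrl and by 0.053 in the interaction, about as far as it moved ULK1 and TFEB there. On leaving out single libraries, values ranged for DdBIC against Ctrl from -0.13 to 0.060 (TFEB). For DdBIC+Hemin against DdBIC they ranged from -0.0066 to 0.032 (NBR1), -0.30 to 0.054 (MAP1LC3B), -0.017 to 0.11 (ATG5) and -0.11 to 0.23 (TFEB). For Hemin against Ctrl the range was -0.24 to 0.19 (SQSTM1), for DdBIC+Hemin against Ctrl -0.56 to 0.46 (GABARAPL1), -0.099 to 0.020 (GABARAPL2) and -0.14 to 0.20 (TFEB), and for the interaction -0.12 to 0.0048 (ATG5) and -0.20 to 0.15 (TFEB).

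Replicate numbers were not taken to pair the samples, since the labels name nothing that they share and deviations of same-numbered libraries correlated at -0.0462 to 0.081, with 0 of 18 pairs over 0.1. For 8 of 12 libraries the most similar library of another group had the same number, where 3 of the 9 candidates do, a hint of pairing from the data and not from the design. With the replicate block, SQSTM1 was at 1.39 and NBR1 at -0.26 for DdBIC against Ctrl, no member's call changed, and the count of all genes higher in Hemin against Ctrl went from 210 to 137. Over all genes, Hemin against Ctrl had 210 higher (101 to 327 over all fits) and 370 lower (168 to 554). The genes higher went from 1933 to 1111 in DdBIC+Hemin against DdBIC, from 808 to 422 in DdBIC+Hemin against Ctrl and from 914 to 453 in the interaction with limma. The interaction had 591 higher with length offsets. Low counts limit TFEB.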

Other observations

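NRF2, the antioxidant transcription factor, is released when p62 binds its inhibitor KEAP1, and BACH1, the repressor of the same genes, is inactivated by heme. Of 15 of their known targets, 1 was higher (FTH1, 0.29 on the log2 scale) and 5 were lower with DdBIC, where 20% and 17.2% of all genes were called. The falls included NQO1 (-0.18 ± 0.0352, edgeR adjusted p = 0.00197) and ABCC1 (-0.18 ± 0.0495, edgeR adjusted p = 0.0129). With hemin added to DdBIC, 12 of 15 were called, each higher (13.5% of all genes were higher), among them GCLM, a subunit of the enzyme that starts glutathione synthesis, at 0.87 ± 0.0866 (edgeR adjusted p = 2.33e-05). Against Ctrl, 4 of 15 were higher with hemin alone and 7 of 15 with both agents, where 1.47% and 5.66% of all genes were higher.

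MAP1LC3C, the LC3 gene of lowest level among those tested, rose with hemin from 0.681 ± 0.0972 to 1.44 ± 0.193 CPM (log2 fold change 1.08 ± 0.203, edgeR adjusted p = 0.0133), on 25 to 31 reads in the Ctrl libraries and 50 to 64 in the Hemin libraries. With both agents it was at 1.19 ± 0.218 CPM (log2 fold change against Ctrl 0.81 ± 0.204, edgeR adjusted p = 0.0254).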
